A study of Rattus norvegicus with 6 samples.

Results

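Proteoglycans are core proteins that carry sulfated sugar chains and lie between cells or on their surface. The small leucine-rich members have a curved core of leucine-rich repeats that binds collagen fibrils and limits how thick they grow, and several of them also hold growth factors in the matrix. In fat, many of them are made by the fibroblasts and progenitor cells around the adipocytes. Versican is a large proteoglycan that binds hyaluronan in loose matrix, perlecan is a heparan sulfate proteoglycan of basement membranes, and glypican-3 is anchored in the outer leaflet of the cell membrane. The 10 genes described here are 7 small leucine-rich genes (Dcn, Bgn, Aspn, Lum, Fmod, Prelp and Ogn), the versican gene Vcan, the perlecan gene Hspg2 and the glypican-3 gene Gpc3. They were chosen by symbol, and are 10 of the 14217 genes that the platform annotation names from probe sets with 1 symbol each. The array holds 19 such probe sets for them.

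The tissue was mesenterial fat of wild-type newborn Sprague-Dawley rats, taken as total RNA and hybridised to 6 Affymetrix Rat Genome 230 2.0 arrays. Vitamin D in the dams' feed was 1000 IU per kg for the adequate group (3 arrays) and 0 IU per kg for the deficient group (3 arrays). Litter and sex are not in the labels, and neither is a statement that each array holds its own animal. The spread that the p-values rest on may therefore be technical, and 3 arrays a group limit the precision.

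Of the 6 arrays, deficient arrays 1 and 2 differed from the rest in the measures given here. The part of these differences in the gene values was not tested. Their spiked bacterial controls read 7.19 and 10.1 times the adequate mean, and those of deficient array 3 read 0.960 times it. The ratio of 3' to 5' beta-actin signal, which grows as RNA or its labelling is less complete, was 7.56, 6.80 and 2.35 on deficient arrays 1, 2 and 3. It ranged from 2.39 to 4.81 in the adequate group. The same ratio for Gapdh differed less, at 1.71, 1.36 and 1.09 on deficient arrays 1, 2 and 3 and 1.13 to 1.30 in the adequate group. Signals above 10000 units were read for 311 and 312 probe sets on deficient arrays 1 and 2, and for 165 to 203 on the others. Of the defining fat cell markers, Adipoq, Cidec, Plin1 and Pparg fell under the brightness filter, and Fabp4, Lpl, Cd36 and Car3 were above it. Of the markers of cartilage and bone, tissues rich in the same proteoglycans, Bglap, Comp and Ibsp fell under the filter. The other two, Col2a1 and Acan, summed to 181 to 242 units on the adequate arrays and to 294, 357 and 181 units on deficient arrays 1, 2 and 3.

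The comparison asks whether the proteoglycan genes of the newborns were read differently after a maternal diet without vitamin D. Lum, Aspn, Gpc3, Dcn and Hspg2 read higher on deficient arrays 1 and 2 than on every adequate array, but not on deficient array 3, while Bgn and Fmod read lower on all 3 deficient arrays. None of the 10 genes passed the test. With limma, 0 of 18625 tested probe sets (0.0%) had an adjusted p under 0.05, and the smallest adjusted p was 0.344. Read by their brightest probe sets, 7 of the 10 were higher in the deficient group, against 44.7% of all tested probe sets, with a median log2 difference of 0.24 against -0.05. Brighter probe sets were higher more often. The share was 94.1% at a mean log2 signal of 13 or more, as for Lum, Dcn and Gpc3. From 12 to 13, as for Ogn, Aspn and Vcan, it was 66.3%. After quantile normalization 5 of the 10 were higher, with a median of -0.028. Over all 18 tested probe sets of the 10 genes, 10 were higher and 8 lower, with a median of 0.06. At an unadjusted p under 0.05 there were 3 of the 18, against 14.2% of all tested probe sets: 1 higher (6.03% of all), from Aspn, and 2 lower (8.18% of all), from Bgn and Fmod. The groups did not overlap for 3 of the 18, against 17.4% of all: 1 higher (6.55% of all), from Vcan, and the same 2 lower (10.8% of all). These counts are near the background. With an array left out, the count at an unadjusted p under 0.05 was 0 (adequate 1, adequate 3 or deficient 2 removed), 1 (deficient 1 removed), 4 (adequate 2 removed) or 9 (deficient 3 removed). Over all 18625 tested probe sets the counts of these fits, in the same order, were 1075, 1442, 906, 1649, 2244 and 6572. The background thus moved as well. Deficient arrays 1 and 2 both lay above the adequate range for 7 of the 18, against 21.6% of all, and both below it for 3, against 30.2%. Deficient array 3 lay within the adequate range for 12 of the 18, against 45.6% of all.

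**Figure D1:**
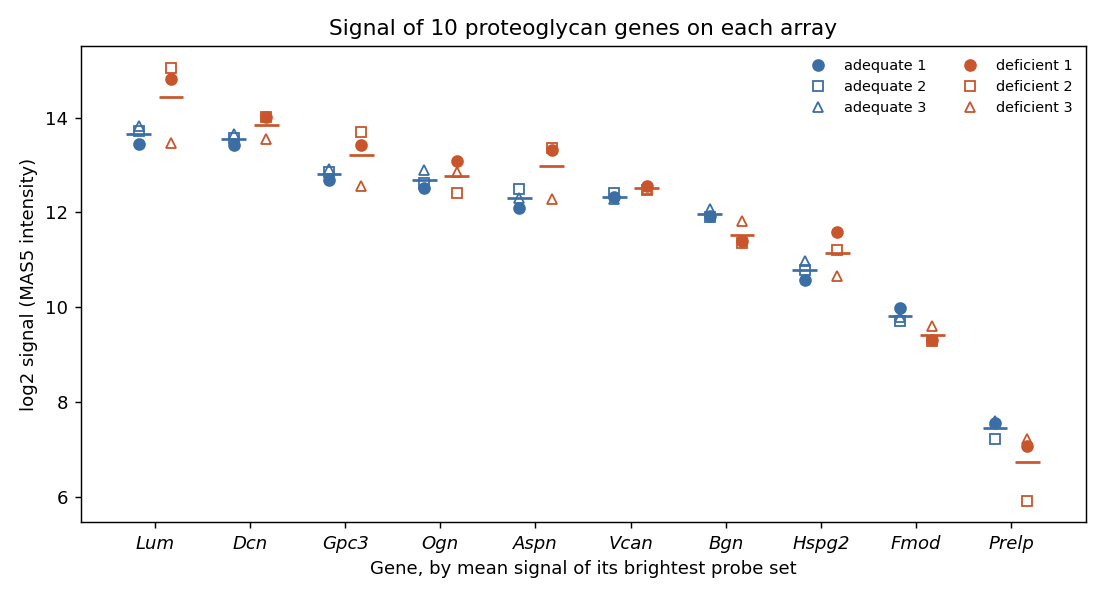
Each point is 1 array's log2 signal (MAS5 intensity) for the brightest probe set of a gene, blue for adequate and orange for deficient, with bars at the group means (n = 3 each). For Lum, Dcn, Gpc3, Aspn and Hspg2 the orange circle and square lie above the blue points and the orange triangle does not, and for Bgn and Fmod all 3 orange points lie below.

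Ranked by signal, Lum was the brightest of the 10 genes, followed by Dcn, Gpc3, Ogn, Aspn, Vcan, Bgn, Hspg2, Fmod and Prelp. The order is one of probe sets, whose probes bind with different strength, and not of transcript amounts. The group means of neighbours in this order were often closer than the spread between arrays: in the adequate group Lum read 13.66 ± 0.20 and Dcn 13.55 ± 0.12 in log2 signal, and Aspn 12.30 ± 0.20 and Vcan 12.34 ± 0.07 (SD, n = 3 each). Lum and Dcn lay among the 170 brightest of 31042 probe sets on every array. Prelp, at 60.4 to 194 units, was near the filter's cutoff of 88.2 units.

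Lumican, which carries keratan sulfate chains and keeps collagen fibrils thin and evenly spaced, had the largest log2 difference of the 10 genes over all 6 arrays, although its groups overlapped. After quantile normalization that of Prelp was larger in size (-0.76, against 0.24 for Lum). Lum read 11112, 13543 and 14499 units on adequate arrays 1, 2 and 3 and 28879, 34153 and 11291 units on deficient arrays 1, 2 and 3. Deficient arrays 1 and 2 lay far above all adequate arrays, and deficient array 3 lay at the low end of the adequate range. Between the groups Lum differed by 0.78 ± 0.36 (SE) on the log2 scale, with an adjusted p of 0.350. Among all 31042 probe sets it ranked 138, 122 and 102 in the adequate group and 59, 42 and 151 in the deficient group, so Lum also moved up in rank on deficient arrays 1 and 2.

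Decorin, which binds the surface of collagen fibrils and carries a single chondroitin or dermatan sulfate chain, lies next to lumican in the rat genome. Dcn read 10971, 12153 and 12992 units on the adequate arrays and 16476, 16558 and 11997 units on the deficient arrays. Deficient arrays 1 and 2 were again the highest, with a smaller spread than for Lum, and the log2 difference was 0.31 ± 0.19 (SE), with an adjusted p of 0.438. Its rank did not follow its signal. Dcn stood at 143, 151 and 131 in the adequate group and at 152, 170 and 136 in the deficient group, so on deficient array 2, where its signal was highest, it had its lowest place.

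Asporin is a decorin relative that has a stretch of aspartates and lacks the usual sugar attachment site. The brightest Aspn probe set, 1380726_at, read 4385, 5783 and 5098 units on the adequate arrays and 10277, 10523 and 4963 units on the deficient arrays. Deficient arrays 1 and 2 were again above the adequate arrays and deficient array 3 within them, with a log2 difference of 0.68 ± 0.27 (SE) and an adjusted p of 0.344. The second Aspn probe set, 1381504_at, read 2096, 2090 and 2476 units on the adequate arrays and 2382, 2920 and 2534 units on the deficient arrays. Its log2 difference was 0.23 ± 0.15 (SE), in the same direction, with an adjusted p of 0.462. Where each probe set lies on the transcript is not given in the sources used here.

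Biglycan, the closest relative of decorin and a carrier of chondroitin or dermatan sulfate chains, went the other way. Bgn read 3892, 3862 and 4327 units on the adequate arrays and 2680, 2624 and 3612 units on the deficient arrays. All 3 deficient arrays were below all adequate arrays, and deficient array 3 was the closest to them. The log2 difference was -0.45 ± 0.17 (SE), a fold of 0.731, with an adjusted p of 0.344.

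Fibromodulin, a keratan sulfate carrier that shares a collagen binding site with lumican, was also lower. Fmod read 1006, 832 and 881 units on the adequate arrays and 638, 627 and 776 units on the deficient arrays. The groups did not overlap, and their log2 difference was -0.42 ± 0.17 (SE), a fold of 0.749, with an adjusted p of 0.344. Prelp, whose product links basement membranes to collagen, is the neighbour of Fmod in the rat genome. It read 187, 149 and 194 units on the adequate arrays and 135, 60.4 and 149 units on the deficient arrays, so the groups met at deficient array 3. The log2 difference was -0.72 ± 0.34 (SE), with an adjusted p of 0.362, and without deficient array 2, the only array under the cutoff of 88.2 units, it was -0.31.

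The ratio of 2 genes on the same array does not depend on a scale shared by that array. It does keep a shift that differs with brightness. The log2 ratio of Lum over Bgn, relative to the adequate mean, was -0.18, 0.12 and 0.06 in the adequate group and 1.74, 2.01 and -0.05 in the deficient group. Lum over Dcn was -0.09, 0.04 and 0.05 in the adequate group and 0.70, 0.93 and -0.20 in the deficient group. The members were thus read unequally on deficient arrays 1 and 2, and these ratios on deficient array 3 were within the adequate range for Lum over Bgn and below it for Lum over Dcn. Among tested probe sets with a mean log2 signal of 13 or more, as for Lum and Dcn, the medians on deficient arrays 1 and 2 were 0.64 and 0.64. Among those from 10 to 12, as for Bgn, they were -0.079 and -0.075. The part of this shift in Lum over Bgn was not tested.

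Osteoglycin, also called mimecan, has 4 probe sets that did not move alike. The brightest, 1376749_at, read 5869, 6270 and 7641 units on the adequate arrays and 8697, 5429 and 7369 units on the deficient arrays, and its log2 difference was 0.10 ± 0.20 (SE). Deficient array 1 was the highest of the 6 arrays here and deficient array 2 the lowest. The probe set 1390450_a_at read 4482, 5584 and 4670 units on the adequate arrays and 9422, 8811 and 4492 units on the deficient arrays. As for Aspn, deficient arrays 1 and 2 lay above all adequate arrays and deficient array 3 did not, with a log2 difference of 0.56 ± 0.26 (SE) and an adjusted p of 0.358. The other two, 1385248_a_at and 1383263_at, had log2 differences of 0.02 ± 0.28 and -0.15 ± 0.35 (SE). No direction is given for Ogn, since 3 of its probe sets were higher and 1 lower, and the brightest had -0.08 after quantile normalization and -0.05 without deficient array 1.

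**Figure D2:**
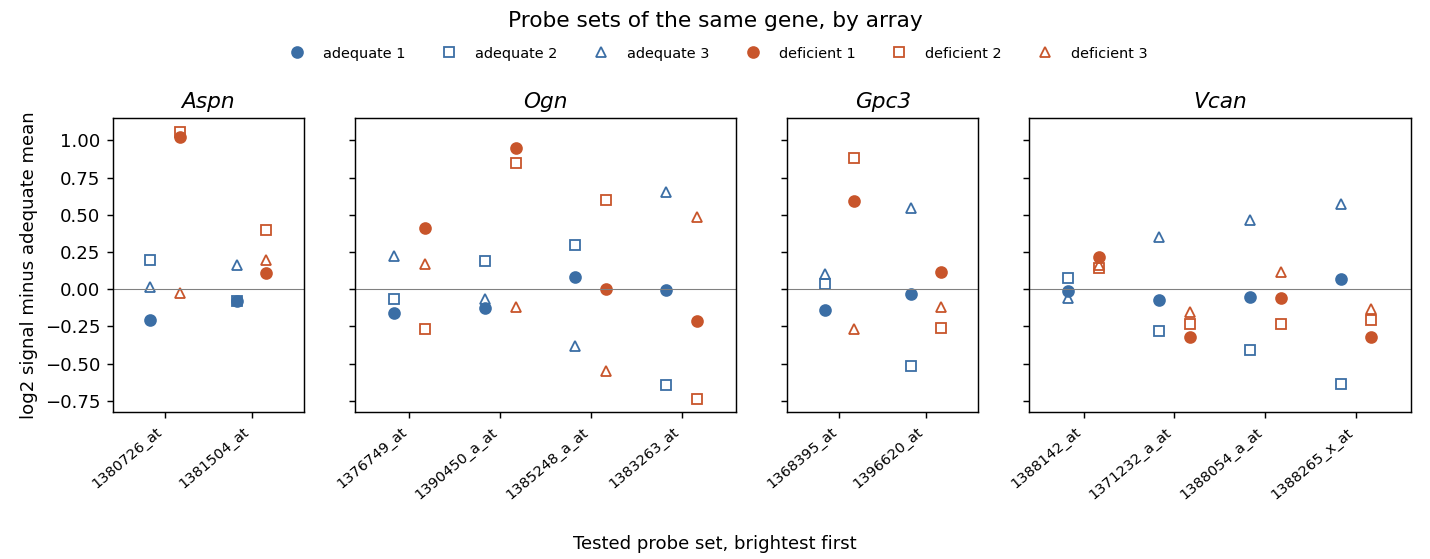
Log2 signal minus the adequate mean for each tested probe set of the 4 genes with more than 1, a point per array (blue adequate, orange deficient). For Aspn, Ogn and Gpc3 a single probe set carries deficient arrays 1 and 2 together more than 0.5 above the adequate mean, and for Vcan the deficient points of the brightest probe set lie close together above the adequate points.

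Versican makes loose, hydrated matrix together with hyaluronan. The brightest Vcan probe set, 1388142_at, read 5120, 5445 and 4972 units on the adequate arrays and 5998, 5704 and 5787 units on the deficient arrays. The groups did not overlap, the spread was small, and deficient array 3 lay with deficient arrays 1 and 2, which was the case for no other brightest probe set read higher in the deficient group. The log2 difference was 0.17 ± 0.14 (SE), where the SE draws on the variance of all probe sets, with an adjusted p of 0.557. The other 3 tested probe sets, 1371232_a_at, 1388054_a_at and 1388265_x_at, had log2 differences of -0.24 ± 0.18, -0.06 ± 0.22 and -0.22 ± 0.27 (SE). With the mean of its probe sets Vcan was at -0.09, and it was at 0.01 after quantile normalization. Another Vcan probe set, 1371233_at, fell below the filter at 2.94 to 45.9 units.

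Perlecan, a heparan sulfate proteoglycan that holds growth factors in basement membranes, has 1 probe set. Hspg2 read 1520, 1767 and 2019 units on the adequate arrays and 3085, 2362 and 1614 units on the deficient arrays. Deficient arrays 1 and 2 were above the adequate arrays and deficient array 3 within their range, which gave a log2 difference of 0.37 ± 0.23 (SE) and an adjusted p of 0.434.

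Glypican-3, a cell surface heparan sulfate proteoglycan that restrains fetal growth, has 2 tested probe sets that differ in brightness. The brighter, 1368395_at, read 6569, 7412 and 7765 units on the adequate arrays and 10927, 13295 and 6009 units on the deficient arrays. Deficient arrays 1 and 2 were above all adequate arrays and deficient array 3 was below them all. The log2 difference was 0.40 ± 0.26 (SE), with an adjusted p of 0.460. The dimmer, 1396620_at, read between 123 and 257 units and had a log2 difference of -0.09 ± 0.29 (SE), with complete overlap of the groups.

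The upstream sequences of 4 genes are shown. On deficient arrays 1 and 2, 3 of them (Lum, Aspn and Gpc3) read above all adequate arrays and the fourth (Fmod) below them. Hspg2 also read above them and has a window in the promoter table, which is not printed. Of the 10 genes, 7 were matched by symbol in the RefSeq promoter table of the GRCr8 assembly; Dcn, Bgn and Prelp were not. Each line gives the 250 bases before the annotated start, 5′ to 3′ on the gene's strand, with capitals at the motifs CCAAT and GGGCGG on either strand. Lum is at chr7:34245456-34245705 (plus strand), Aspn at chr17:15310470-15310719 (minus strand), Gpc3 at chrX:137157599-137157848 (minus strand) and Fmod at chr13:48045317-48045566 (plus strand).
Lum: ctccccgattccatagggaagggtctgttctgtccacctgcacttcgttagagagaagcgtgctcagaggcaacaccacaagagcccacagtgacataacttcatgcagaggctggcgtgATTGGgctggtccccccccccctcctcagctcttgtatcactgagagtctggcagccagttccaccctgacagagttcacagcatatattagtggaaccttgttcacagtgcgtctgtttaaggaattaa
Aspn: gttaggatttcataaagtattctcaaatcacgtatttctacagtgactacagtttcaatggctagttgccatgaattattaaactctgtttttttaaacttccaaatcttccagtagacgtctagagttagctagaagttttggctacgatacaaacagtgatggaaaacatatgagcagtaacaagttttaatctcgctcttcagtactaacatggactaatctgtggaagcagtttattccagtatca
Gpc3: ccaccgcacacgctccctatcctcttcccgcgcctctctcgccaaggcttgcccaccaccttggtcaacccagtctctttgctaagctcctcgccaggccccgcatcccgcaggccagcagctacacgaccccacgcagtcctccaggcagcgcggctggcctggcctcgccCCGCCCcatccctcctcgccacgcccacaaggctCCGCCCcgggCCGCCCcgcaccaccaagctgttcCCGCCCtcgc
Fmod: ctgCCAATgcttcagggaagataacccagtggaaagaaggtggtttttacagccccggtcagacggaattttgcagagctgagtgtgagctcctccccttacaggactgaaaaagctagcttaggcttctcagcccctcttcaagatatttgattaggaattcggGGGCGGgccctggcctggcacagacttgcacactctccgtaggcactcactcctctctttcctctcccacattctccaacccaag

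The windows differed in composition and in motif matches. Gpc3 is 71.6% G and C with 22 CpG, Lum and Fmod are 52.8% with 5 CpG each, and Aspn is 34.8% with 4, where the median of all 33469 promoter windows is 51.2% and 5. CCAAT was found once in Lum and once in Fmod, and in 34.0% of all windows. GGGCGG was found 4 times in Gpc3 and once in Fmod, and in 30.5% of all. TATAAA (12.9% of all windows), AGGTCA (14.1%) and the paired vitamin D response element with a spacer (0.0926%) matched none of the 4 on either strand; matches to AGGTCA and to that element can overlap. The Hspg2 window, which is not printed, held 1 match to AGGTCA and 5 to GGGCGG, and none to the vitamin D response element. A match, or its absence, describes only these letters in these windows.

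In the rat genome several of these genes are neighbours. Dcn is followed by Lum, Ogn by Omd and then Aspn, and Prelp by Fmod. Omd, the gene of osteoadherin, read 94.7, 92.7 and 87.8 units on the adequate arrays and 144, 122 and 129 units on the deficient arrays. All deficient arrays were above the adequate arrays, with a log2 difference of 0.52 ± 0.24 (SE) and an adjusted p of 0.350, at signals just above the cutoff. Ecm2, which lies close to Aspn, read 306, 322 and 360 units on the adequate arrays and 161, 253 and 274 units on the deficient arrays. It was lower on all deficient arrays, with a log2 difference of -0.55 ± 0.24 (SE) and an adjusted p of 0.348, so neighbours in this cluster had opposite directions.

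The brightest probe sets of the whole array, not these genes alone, read higher on deficient arrays 1 and 2. Among the 306 tested probe sets with a mean log2 signal of 13 or more, 94.1% were higher in the deficient group, with a median log2 difference of 0.42. Lum, Dcn and Gpc3 belong to this class. Relative to the adequate mean, the class median was 0.64 on deficient array 1, 0.64 on deficient array 2 and -0.00050 on deficient array 3. Lum was at 1.15, 1.40 and -0.20 on these arrays, so it was above the class median on deficient arrays 1 and 2 and below it on deficient array 3. Dcn was at 0.46, 0.46 and -0.0016, below the class median on deficient arrays 1 and 2. Gpc3 was at 0.60, 0.88 and -0.27.

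In the next class, of 552 probe sets with a mean log2 signal from 12 to 13, the medians were 0.16, 0.19 and -0.0014 on the deficient arrays. Aspn was at 1.02, 1.06 and -0.03, above the 90th percentile of this class (0.81 and 0.90) on deficient arrays 1 and 2. Hspg2 was at 0.81, 0.43 and -0.12, in a class from 10 to 12 with medians of -0.079, -0.075 and 6.1e-05. Bgn, in the same class, was at -0.59, -0.62 and -0.15, and the 10th percentiles there were -0.60 and -0.63 on deficient arrays 1 and 2. How far the shift of bright probe sets, the hybridisation controls or the 3' over 5' ratios enter these values was not tested.

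**Figure D3:**
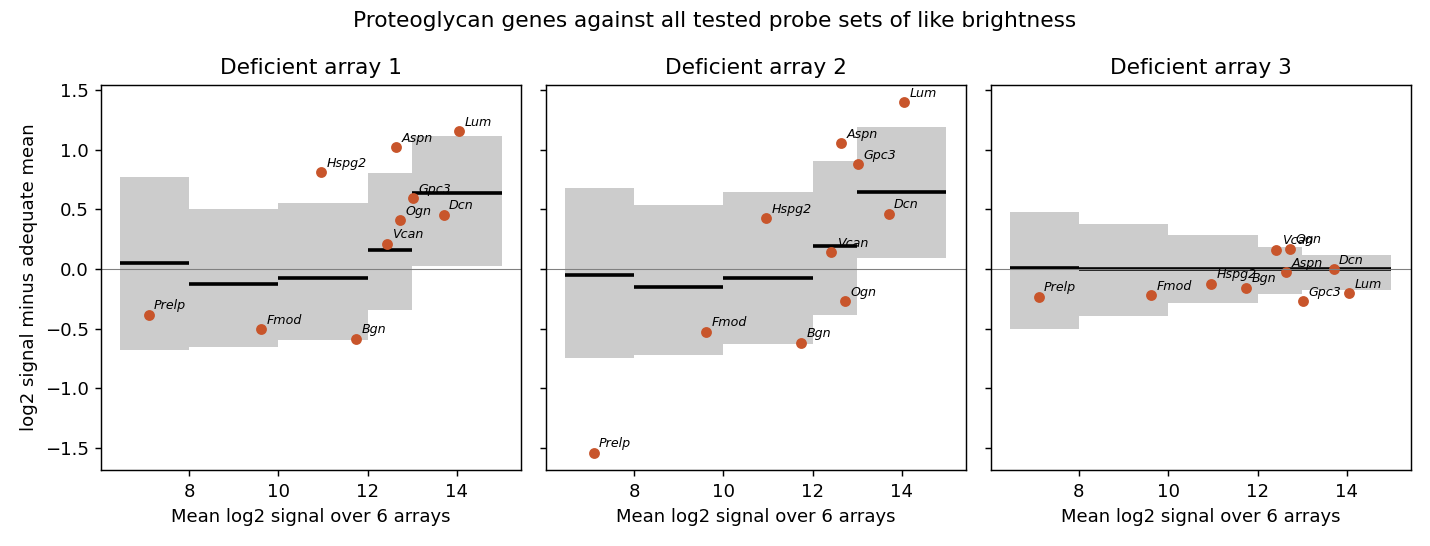
Each panel is 1 deficient array: the y axis is the log2 signal minus the adequate mean, the x axis the mean log2 signal over all 6 arrays, with orange points for the 10 genes. Black lines are the medians and grey boxes the 10th to 90th percentiles of all tested probe sets in 5 brightness classes, whose medians reach 0.64 at the right on deficient arrays 1 and 2 and stay near 0 on deficient array 3.

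Fibroblast markers, of cells that make many of these proteoglycans, had a higher summed signal on deficient arrays 1 and 2. Of the 10 markers all were tested, 6 were higher and 4 lower, and none was at 0. Their log2 differences ran from -0.92 to 0.81. Their summed signal was 74270 to 88503 units on the adequate arrays and 148327, 145321 and 78724 units on deficient arrays 1, 2 and 3. The brightest genes weigh most in such a sum. Relative to the adequate mean, the mean log2 signal of the 10 was 0.30, 0.18 and -0.07 on deficient arrays 1, 2 and 3. It ranged from -0.13 to 0.09 on the adequate arrays. Smooth muscle markers, with 5 of 7 higher, summed to 56934 to 69332 units on the adequate arrays and to 106674, 111750 and 71505 units on the deficient arrays. Their mean log2 signal was 0.34, 0.45 and 0.14 on the deficient arrays and -0.16 to 0.12 on the adequate arrays. The fibroblast list holds bright collagen genes. Col3a1, with the highest log2 difference of that list, read 21264, 24704 and 23867 units on the adequate arrays and 54863, 57459 and 21526 units on the deficient arrays. Immune cell markers are given by this mean log2 signal only. All 4 tested lymphocyte markers were lower, each with overlap between the groups. In limma 3 of the 4 were lower at an unadjusted p under 0.05, against 8.18% of all tested probe sets. Relative to the adequate mean, the 4 lymphocyte markers had a mean log2 signal of -1.07, -1.72 and -0.17 on deficient arrays 1, 2 and 3. The 6 macrophage markers, 4 of them lower, had -0.47, -0.36 and 0.0086. On the adequate arrays the lymphocyte mean ranged from -0.63 to 0.36 and the macrophage mean from -0.11 to 0.08. The part of these cells in the proteoglycan values was not tested, and in tissue RNA more cells of a type and more RNA per cell cannot be told apart.

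Whether the genes passed depended on how the arrays were used. Genes also passed with all 6 arrays under array weights, as given below. With these weights Lum was at 1.21 and Aspn at 1.00. Those values lay nearer to the fit without deficient array 3 (1.28 and 1.04) than to the unweighted fit (0.78 and 0.68). Leaving out deficient array 3 keeps only deficient arrays 1 and 2, whose spiked controls and beta-actin ratios stood apart. In that fit, diet and these array differences cannot be told apart, and the array weights do not separate them either. Without deficient array 3, 8 of the 18 proteoglycan probe sets had an adjusted p under 0.05, where 19.4% of all tested probe sets did: 6 higher (8.75% of all) and 2 lower (10.7% of all). Higher were Lum (log2 difference 1.28, adjusted p 0.00075), Aspn by its brightest probe set (1.04, 0.00132), Ogn by 1390450_a_at (0.90, 0.00196), Gpc3 by its brighter probe set (0.74, 0.00473), Hspg2 (0.62, 0.0276) and Dcn (0.46, 0.0168). Lower were Bgn (-0.60, 0.00737) and Fmod (-0.51, 0.0397). With deficient array 3 alone against the adequate arrays, 2 of the 10 genes were higher, Ogn at 0.17 and Vcan at 0.16, and Lum was at -0.20, Gpc3 at -0.27, Aspn at -0.027 and Dcn at -0.0016. Bgn at -0.15, Fmod at -0.22 and Prelp at -0.23 kept their direction.

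After quantile normalization, which gives every array the same distribution, the log2 difference of Lum was 0.24, against 0.78 before. Gpc3 was at 0.10, against 0.40, Dcn at -0.063, against 0.31, and Aspn at 0.44, against 0.68. Hspg2 (0.35), Bgn (-0.50), Fmod (-0.34) and Prelp (-0.76) changed little.

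**Figure D4:**
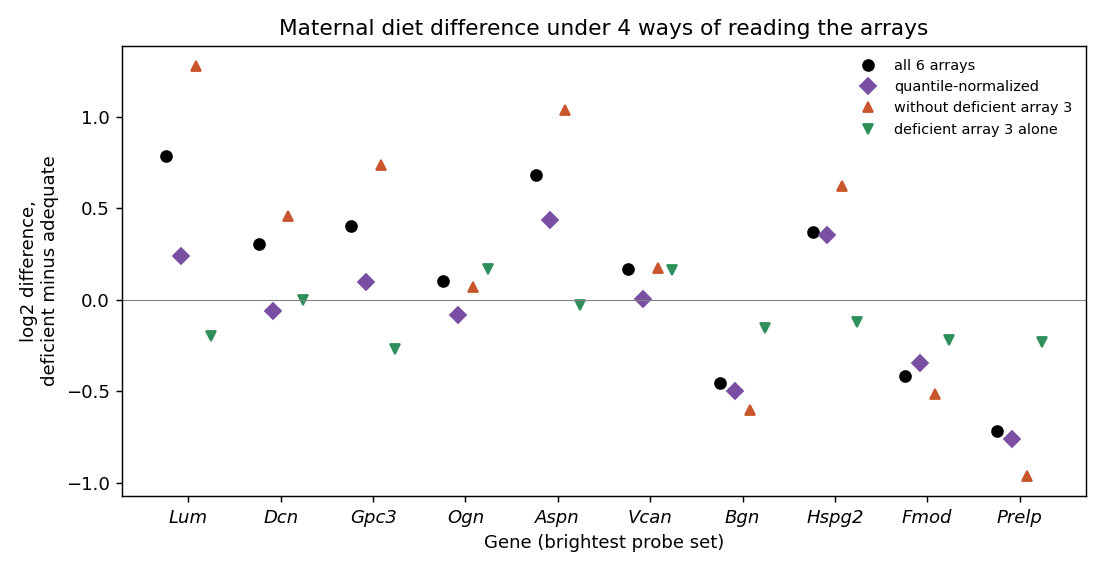
The y axis is the log2 difference (deficient minus adequate) of each gene's brightest probe set with all 6 arrays, after quantile normalization, without deficient array 3, and with deficient array 3 alone. Bgn, Fmod and Prelp stay below 0 under all 4, Lum and Aspn lie between 0.24 and 1.28 in all but the last, and Dcn is at -0.06 after quantile normalization.

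The 5 named genes whose array pattern was most like that of Lum were Rpl27a, a ribosomal protein gene, Tpm1, a tropomyosin gene, Id4, Tcf12 and Arxes2, with Pearson's r from 0.997 to 0.999 over the 6 arrays. Of 13854 other tested probe sets with 1 symbol, 420 (3.03%) had r of at least 0.95. The 6 points share the array scaling and the separation of deficient arrays 1 and 2, so r is a description of these arrays.

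The other genes of proteoglycan biology were read from lists, each gene by its brightest tested probe set, and none of their members passed over all tested probe sets. Of the other small leucine-rich genes, 4 of 11 were tested, with 2 higher and 2 lower. Podn, the podocan gene, read 262, 271 and 295 units on the adequate arrays and 214, 98 and 212 units on the deficient arrays. It was lower on all deficient arrays, at a log2 difference of -0.75 ± 0.31 (SE). Of the other matrix and cell surface proteoglycans, 14 of 22 were tested, with 6 higher, 8 lower and a median of -0.04. The syndecans Sdc3 (-0.47 ± 0.20) and Sdc1 (-0.31 ± 0.18) and the glypican Gpc1 (-0.35 ± 0.18, SE) had the smallest unadjusted p, each with overlap between the groups and adjusted p from 0.344 to 0.410.

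Genes that build the sugar chains were read as 3 lists. Of the linker and precursor enzymes, 11 of 13 were tested and 9 were lower, with a median of -0.20 against -0.05 over all tested probe sets. Papss2, which makes the sulfate donor, read 681, 511 and 615 units on the adequate arrays and 369, 429 and 499 units on the deficient arrays. Slc35b2, which carries that donor into the Golgi, read 516, 484 and 555 units and 350, 328 and 461 units. Both were lower on all deficient arrays, at log2 differences of -0.48 ± 0.19 and -0.46 ± 0.19 (SE), each with an adjusted p of 0.344. B3gat3, which completes the linker, was at -0.45 ± 0.23 (SE) with overlap.

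Of the chondroitin and dermatan sulfate enzymes, 8 of 16 were tested, 4 higher and 4 lower, with a median of 0.09. Csgalnact2 and Csgalnact1, which start the chondroitin chain, were at 0.39 ± 0.17 and 0.56 ± 0.36, and Dsel, a dermatan sulfate epimerase relative, at 0.48 ± 0.25 (SE). Of the heparan sulfate enzymes, 12 of 19 were tested, 3 higher and 9 lower, with a median of -0.14. Hs2st1, a sulfotransferase, read 2242, 2025 and 1698 units on the adequate arrays and 3359, 3002 and 2422 units on the deficient arrays, a log2 difference of 0.55 ± 0.18 (SE). Extl2, a regulator of chain start, read 529, 396 and 361 units and 229, 223 and 326 units, a difference of -0.73 ± 0.23 (SE). Neither gene's groups overlapped, both had an adjusted p of 0.344, and Extl3 was at -0.51 ± 0.25 (SE) with overlap.

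Hyaluronan, its synthases and the link proteins hold versican in place. Of this list 7 of 13 were tested, 4 higher and 3 lower. Hapln3, a link protein, read 199, 182 and 218 units on the adequate arrays and 152, 115 and 136 units on the deficient arrays, a log2 difference of -0.58 ± 0.23 (SE) without overlap. Hmmr, a hyaluronan receptor of dividing cells, was at -0.46 ± 0.25, and Has2, a hyaluronan synthase, at 0.41 ± 0.33 (SE), both with overlap.

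Of the genes of proteoglycan turnover, 15 of 20 were tested, 6 higher and 9 lower, with a median of -0.15. Bmp1, the protease that removes the propeptides of biglycan and of collagens, read 1922, 1838 and 2130 units on the adequate arrays and 1206, 1107 and 1640 units on the deficient arrays. As for Bgn, all deficient arrays were below all adequate arrays, with a log2 difference of -0.59 ± 0.18 (SE) and an adjusted p of 0.344. Ids, a lysosomal sulfatase, was at 0.81 ± 0.32, and Adamts8, a protease, at 0.53 ± 0.21 (SE), both with overlap. Of the 17 matrix partners, 9 were higher and 8 lower, with a median of 0.15. Col5a2, of fibril cores, was at 0.59 ± 0.25 (SE) and followed deficient arrays 1 and 2, at 23238 and 25143 units against 12247 to 14072 units on the adequate arrays and 13068 units on deficient array 3. Col6a2, of the beaded filaments that biglycan and decorin bind, was at -0.52 ± 0.18, and Tgfb3, a growth factor held by decorin and biglycan, at -0.64 ± 0.20 (SE), neither with overlap and each with an adjusted p of 0.344.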

How the data were processed

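The deposited values are linear intensity signals of 31099 probe sets on 6 arrays. Per the submitters' processing notes they came from MAS5 in Affymetrix Expression Console (no version), which scales each array to a common level. Detection calls and background settings were not used here. The 57 control probe sets were set aside. The other 31042 signals were log2 transformed with no offset, and 18625 with a mean log2 signal at or above the 40th percentile (6.46, a signal of 88.2) were tested. Groups came from the sample titles. Deficient minus adequate was estimated in limma 3.58.1 (R 4.3.3; lmFit, then trended eBayes) by two-sided tests, adjusted by Benjamini-Hochberg over all tested probe sets at 0.05. The fit was also run on simulated data with independent noise. These held no shift shared by the probe sets of an array, so that run does not cover such a shift. A gene was read by its brightest tested probe set, with the others beside it. All 10 genes were named by symbol, and up to 3 genes of each other list by smallest unadjusted p; Omd and Ecm2 also as neighbours, and Col3a1 after its values were seen. The members, lists and alternatives were chosen with earlier results of these data known. Gene order and upstream sequences came from RefSeq (GRCr8). Same-numbered arrays of the groups are not said to be paired, and their deviations from the group means correlated at 0.11, 0.15 and 0.01, so the numbers were not taken to pair them. Figures were drawn with matplotlib 3.10.9.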

Additional observations from a re-analysis of the deposited data

How the results depend on the processing

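The count of probe sets past the adjusted threshold was 0 with all 6 arrays, 3462 with array weights and from 0 to 3614 without 1 array; the count at an unadjusted p under 0.05 was 2647, and 6678 with array weights, 906 to 6572 without 1 array, 1072 with deficient arrays 1 and 2 given a term of their own, 1314 with the actin ratio and 788 with the spiked controls as covariate, and 1214 without deficient arrays 1 and 2 together, an alternative added after seeing the data. For the proteoglycan probe sets the latter count was 3, and 9, 0 to 9, 0, 0, 1 and 0 under the same alternatives, and 5 with the replicate number as a block, which gave the same log2 differences. Of the 10 genes, 7 were higher with all arrays, 6 to 7 without 1 array, 5 after quantile normalization, 6 with probe sets averaged per gene, 2 with the term for deficient arrays 1 and 2, 3 with the spiked-control covariate and 2 without deficient arrays 1 and 2. Their median log2 difference was 0.24, and 0.15 to 0.32 without 1 array, -0.028 after quantile normalization, 0.14 with probe sets averaged per gene, -0.14 with the term, -0.13 with the spiked-control covariate and -0.14 without deficient arrays 1 and 2. Signs that turned with the term, and likewise without deficient arrays 1 and 2, were those of Aspn (-0.027), Dcn (-0.0016), Gpc3 (-0.27), Hspg2 (-0.12) and Lum (-0.20); with the spiked-control covariate those of Aspn (-0.011), Gpc3 (-0.26), Hspg2 (-0.090) and Lum (-0.18); after quantile normalization those of Dcn (-0.063) and Ogn (-0.082); Ogn ranged from -0.051 to 0.29 without 1 array, below 0 without deficient array 1, and Vcan was at -0.088 with the mean of its probe sets. In these the cause was not tested. Bgn, Fmod and Prelp kept their direction under every alternative in which they were tested. Prelp was not tested with the filter at the 60th percentile. With array weights 8 of the 10 brightest probe sets passed, where 3462 of all 18625 did. The weighted log2 difference of Lum, 1.21, was near its 1.28 without deficient array 3. Signals near the filter's cutoff, as for Prelp, are the least certain.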

Other observations

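Some probe sets spread widely among the adequate arrays. Adequate array 3 was the highest adequate array and adequate array 2 the lowest for 3 Vcan probe sets (1371232_a_at, 1388054_a_at and 1388265_x_at), for 1383263_at of Ogn and for 1396620_at of Gpc3. In log2 signal, the spread among the adequate arrays was 0.32, 0.44 and 0.61 (SD, n = 3) for the 3 Vcan probe sets, against 0.07 for the brightest one, 1388142_at. For the Ogn probe set it was 0.65 and for the Gpc3 probe set 0.53, against 0.20 and 0.12 for the brightest ones of these genes. The same order held for probe sets of Bgn, Prelp and Aspn (1381504_at), with SD of 0.092, 0.20 and 0.14. These probe sets were singled out after their values were seen.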
